A study of Mus musculus with 4 samples.

Results

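Among the CD45+ cells of inflamed mouse esophagus, 202 of 6054 (100 from Il20rb knock-out and 102 from wild-type animals) were dendritic cells that carried Cd209a together with at least 4 summed UMIs of Ifitm1, Klrd1 and Cd7. A UMI, or unique molecular identifier, marks 1 captured RNA molecule. The cells were chosen by their own counts: 2 or more UMIs of Cd209a (811 cells), summed C1qa, C1qb and C1qc under 10 (779 left), no Xcr1 or Clec9a (762 left), summed Mki67 and Top2a under 3 (684 left), not both Ccr7 and Fscn1 (684 left), and the sum of Ifitm1, Klrd1 and Cd7 (202 left). These 202 are called gated cells here, and the other 482 Cd209a cells, which met all but the last condition, are called cells under the threshold. The levels of these genes inside the gate follow from the choice and are given as a description.

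Cd209a encodes a C-type lectin related to DC-SIGN and is used as a marker of type 2 conventional dendritic cells (cDC2), which take up antigen in tissues and present it to CD4+ T cells. Klrd1 encodes CD94, best known as the partner of NKG2 receptors on natural killer cells; Ifitm1 belongs to a family of interferon-inducible membrane proteins that restrict virus entry; Cd7 is an immunoglobulin-family surface protein of T and NK cells. Ly6a (Sca-1) and Isg15, a ubiquitin-like protein, are induced by interferons in many cell types. In RefSeq on build GRCm38.p6, Klrd1 lies at chr6:129588092-129598775, Cd7 at chr11:121036747-121039478, Ifitm1 at chr7:140967429-140969827, and Ly6a at chr15:74994877-74998031.

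The animals compared were 5 Il20rb knock-out mice (KO1 to KO5), which lack one chain of the receptors that bind IL-19, IL-20 and IL-24, and 5 wild-type mice (WT1 to WT5). Every animal of both genotypes underwent the same model of eosinophilic esophagitis: the ear was treated for 14 days with MC903 (calcipotriol) and ovalbumin, mice then drank ovalbumin and were gavaged with it on days 15 and 17, and organs were taken on day 18. All samples come from challenged mice, and strain, sex and age are not given in the labels. Cells of each animal were marked with its own hashtag antibody, pooled, sorted as viable CD45+ cells and loaded on 2 wells. An animal gave 271 to 897 cells and 1805883 to 5666994 UMIs. The gated cells numbered 23, 27, 13, 14 and 23 in KO1 to KO5, and 18, 19, 25, 26 and 14 in WT1 to WT5, and 99 of them came from well 1 and 103 from well 2. The 2 wells shared 2 barcodes, and 0 of the gated cells had one of these. Gated cells held a median of 7891.5 UMIs and 2256 genes, against 6517 UMIs and 2097.5 genes in cells under the threshold, so shares of cells with a UMI are read beside that gap in depth. Il20rb itself had 0 UMIs in 202 gated cells, which allows a share of up to 1.49% of cells with a UMI. That limit counts the 100 knock-out cells, and the limit for the 102 wild-type cells alone is wider.

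Klrd1 carried most of the sum. Of the summed UMIs in gated cells, Klrd1 gave 56.5%, Ifitm1 35.5% and Cd7 7.97%. Klrd1 was detected in 196 of the 202 cells, Ifitm1 in 88 and Cd7 in 67. All 3 genes were detected together in 35 cells and exactly 2 of them in 79, while 84 cells had Klrd1 alone and 4 had Ifitm1 alone. The median sum was 10 and the highest was 101. The threshold cut through a continuous range: 30 cells had a sum of exactly 4 and 35 had a sum of 3. The 30 cells just inside had 113 Ly6a, 339 Plac8, 1292 Lyz2 and 33.5 Ecm1 CPM (the gene's counts per 1000000 UMIs of the cells summed), against 97.4, 317, 1183 and 160 CPM in the 35 cells just outside. Of these 4 genes, Ecm1 differed most across the threshold.

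The 3 genes were not distributed alike over the other cells of the esophagus. Klrd1 UMIs were found in 97.0% of gated cells and 39.2% of cells under the threshold. They were also found in 56.2% of cDC1 (cells with Xcr1 or Clec9a), in 32.7% of cells with both Ccr7 and Fscn1 and in 51.4% of lymphocytes with Nkg7. In macrophages with C1q, which should lack it and had a median of 6235 UMIs, the share was 3.81%. Klrd1 RNA was thus present across the dendritic cell subsets at shares above this background. Cd7 was found in 33.2% of gated cells and 29.1% of Nkg7 lymphocytes, against 1.66% of cells under the threshold, 0.952% of cDC1 and 0.153% of C1q macrophages. Ifitm1 was found in 43.6% of gated cells, against 4.98% of cells under the threshold and 5.95% of C1q macrophages. Klrc1, which encodes the CD94 partner NKG2A, gave 2 UMIs in 1 gated cell, against 96 UMIs in 41 of 179 Nkg7 lymphocytes. Klrk1, which encodes NKG2D, was found in 46.0% of gated cells and 20.1% of cells under the threshold.

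Defining NK markers were absent from the gate, T cell markers came from few cells, and the monocyte and plasmacytoid lists were mixed. Of the 11 NK and cytotoxic markers, Ncr1, Klrb1c, Gzma, Gzmb, Prf1 and Eomes had no UMI in any gated cell. The 11 markers summed to between 5.04 and 41.5 CPM in the animals' gated cells, against 10752 CPM in pooled Nkg7 lymphocytes. T cell markers summed to a median of 0 CPM and reached 352 CPM in KO3, where 1 cell with 15294 UMIs held 12 Cd3e UMIs and 44 T cell marker UMIs in all. Leaving out Cd209a, which the rule selects on, all 11 other cDC2 markers were detected, and they summed to 1718 to 2512 CPM in gated cells, below the 2627 to 3307 CPM of cells under the threshold in each animal. Pooled, these 11 had 2178 CPM in gated cells, against 876 CPM in cDC1 and 1331 CPM in C1q macrophages. The 6 macrophage markers other than C1q summed to 323 to 543 CPM in gated cells and 688 to 898 CPM under the threshold, against 4655 CPM in pooled C1q macrophages. The 10 monocyte markers were all detected and summed to 1190 to 5305 CPM in gated cells, against 1209 to 2924 CPM under the threshold. Their sum was higher in the gate in 8 of 10 animals, but most single markers were not. Of 8 measured, 3 had a positive median log2 ratio of gated cells over cells under the threshold (list median −0.14). Plac8 and Ms4a4c were higher in all 10 animals, and Ccr2 was lower in all 10. Ly6c2, the usual surface marker of classical monocytes, was higher in the gate in 4 of 10 animals. Plasmacytoid dendritic markers summed to 360 to 1551 CPM in gated cells, against 217 to 608 CPM under the threshold. They were higher in the gate in 10 of 10 animals, with Ly6d and Klk1 at 0. Of these 7 markers, 2 were measured at 20 CPM or more in either subset. Pooled, the list had 840 CPM in gated cells, of which Bst2 gave 660 CPM. It had 953 CPM in C1q macrophages and 986 CPM in cells with both Ccr7 and Fscn1, so the sum was no higher in gated cells than in either.

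Beyond the genes of the rule, gated cells had higher levels of Plac8, Bst2, Isg15, Ifitm2, Ifitm3 and 3 Ms4a genes than the other Cd209a cells of the same animal. Of 5470 genes measured at 20 CPM or more in either subset, 148 (2.71%) were higher in gated cells in all 10 animals and 228 (4.17%) were lower in all 10. Some genes in these counts reached that level only in the subset where they were higher. Because the cells were separated by their own counts, no test was made of these differences. The 20 genes taken as higher are those with the largest median log2 ratio among the 148. Plac8, a small cysteine-rich protein, had the largest at 1.73 (range over animals 1.14 to 3.15), with a mean of 877 ± 800 CPM in gated cells and 263 ± 308.8 CPM under the threshold (SD, n = 10 animals). Bst2 (tetherin, which holds budding virions at the cell surface) averaged 663 ± 399 against 260 ± 138 CPM. Isg15 averaged 633 ± 812 against 298 ± 379 CPM, a spread larger than either mean. Plac8 and Ms4a4c are themselves on the monocyte list and Bst2 on the plasmacytoid list, and the part of such cells in these differences was not tested.

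All 3 measured Ifitm genes outside the rule were higher in gated cells in all 10 animals. Ifitm3 averaged 3807 ± 2174 CPM in gated cells against 1876 ± 878 CPM under the threshold, with a median log2 ratio of 0.81. Ifitm2 had a median ratio of 1.14 and Ifitm6 of 0.62. Ifitm1, Ifitm2, Ifitm3 and Ifitm6 lie within one stretch of chromosome 7, between positions 140954837 and 141016892. Of the 17 measured genes of the type I interferon list, 16 had a positive median ratio, with a list median of 0.31 against −0.05 over all genes, and 1 of them, Isg15, was higher in all 10 animals. Ly6a, which is also given as a marker of these cells, had a median ratio of 1.43 and was higher in 9 of 10 animals. With every cell thinned to 3000 UMIs, Ly6a was detected in 32.8% of 201 gated cells and 5.29% of 435 cells under the threshold. Without thinning the shares were 36.1% and 7.68%. Only the detection of Ly6a was thinned here, since cells were still divided at the threshold by their full counts. These shares pool the animals, and the part of depth in the division of the cells was not tested.

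**Figure D1:**
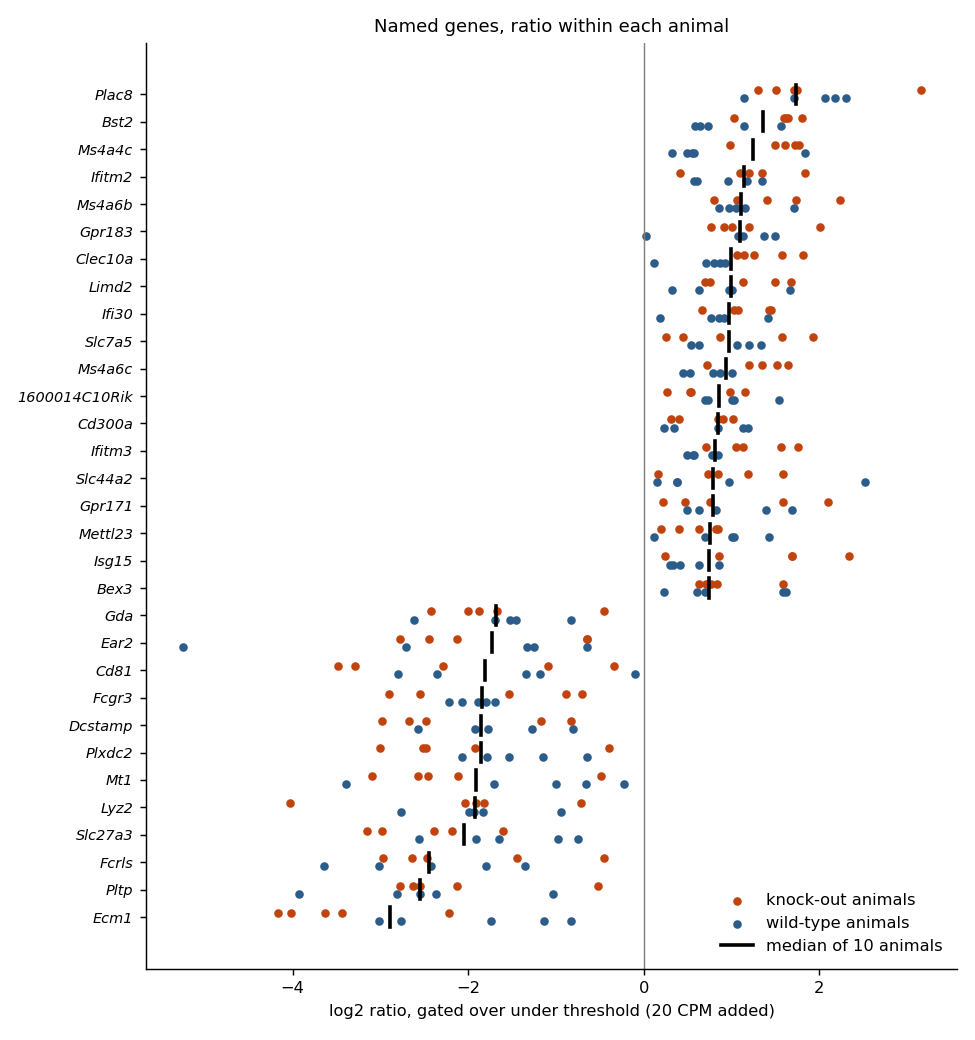
Each row is a gene, and each point is the log2 ratio of its level in gated cells over Cd209a cells under the threshold of 1 animal (20 CPM added to both); black bars are medians over 10 animals. The upper genes, drawn from the 20 higher ones, lie above 0 and the 12 lower genes lie below 0 in every animal, as their selection requires, with Plac8 at a median of 1.73 and Ecm1 at −2.89.

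Promoter sequences of RefSeq (GRCm38.p6, 250 bases before to 50 after each gene's start) were available for 16 of the 20 higher genes and were searched for GAAANNGAAA, the core of the element bound by interferon-activated factors, on both strands (TTTCNNTTTC on the other). Bst2, Ifitm2, Ifitm3 and Isg15 held it, 4 of 16, against 1079 of 27025 genes (3.99%) overall and 0 of 10 among the lower genes. Ifitm1 and Cd209a had no match in this window. The matches of Ifitm3 lay after the start of the gene. The 60 bases around the upstream matches of the other 3 genes are printed because they show where in each promoter the motif lies; capitals mark the matched bases, which overlap where a gene has several.
Isg15: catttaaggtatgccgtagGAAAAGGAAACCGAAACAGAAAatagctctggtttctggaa
Bst2: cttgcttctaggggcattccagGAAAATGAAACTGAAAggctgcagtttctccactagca
Ifitm2: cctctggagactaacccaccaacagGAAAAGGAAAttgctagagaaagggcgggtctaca
The stretches lie on the minus strand at chr4:156200856-156200915 (Isg15), chr8:71537565-71537624 (Bst2) and chr7:140955973-140956032 (Ifitm2), and the first base printed is 97, 152 and 71 bases upstream of the start. For Isg15 and Bst2 this is the end of the gene's span; for Ifitm2 the table's start lies inside the span of the gene (chr7:140954837-140959686), whose other starts were not searched. Isg15 held 3 overlapping matches, Bst2 2 and Ifitm2 1. A match is a description of the letters and not evidence of binding in these cells.

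The remaining named genes that were higher in the gate included a positioning receptor and a lectin. Gpr183 (EBI2), the oxysterol receptor that positions cDC2 in lymphoid tissue, averaged 228 ± 61.3 CPM in gated cells and 94.3 ± 21.1 CPM under the threshold. Its level varied little between animals compared with Isg15. Clec10a, a lectin for galactose-type sugars, averaged 414 ± 161 against 214 ± 162 CPM. Most related genes went the other way. Of 11 measured C-type lectins of dendritic cells outside the rule, 3 had a positive median ratio (list median −0.43). Among these lectins, 1 was higher and 3 were lower in all 10 animals. Of 10 measured cDC2 markers, which include Clec10a, 2 had a positive median ratio (list median −0.33). Ifi30, a thiol reductase that opens disulfide bonds of antigens, averaged 2387 ± 594 against 1216 ± 383 CPM. Ms4a4c, Ms4a6b and Ms4a6c, of the membrane-spanning 4A family, had median log2 ratios of 1.24, 1.11 and 0.94. Other genes among the 20 were Limd2, Slc7a5 (an amino acid transporter), 1600014C10Rik, Cd300a (an inhibitory receptor), Slc44a2, Gpr171, Mettl23 and Bex3, with median ratios of 0.74 to 0.99. Slc7a5, 1600014C10Rik, Slc44a2 and Bex3 averaged 13.6, 8.48, 19.2 and 9.75 CPM under the threshold. They passed the level of 20 CPM only through the gated cells.

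The genes furthest below the other Cd209a cells were lower in the gate in all 10 animals by their selection. Ecm1 (extracellular matrix protein 1) averaged 38.9 ± 35.9 CPM in gated cells and 315 ± 100 CPM under the threshold, a median log2 ratio of −2.89. Pltp, a phospholipid transfer protein, averaged 43.1 ± 47.4 against 256 ± 73.8 CPM, and Fcrls, an Fc receptor-like gene, 31.4 ± 43.1 against 183 ± 77.8 CPM. Lyz2, the lysozyme of myeloid cells, averaged 715 ± 493 against 2611 ± 886 CPM. Mt1, a metal-binding metallothionein, averaged 893 ± 654 against 2429 ± 535 CPM. The other 7 of the 12 named lower genes, Slc27a3, Plxdc2, Dcstamp, Fcgr3 (a low-affinity IgG receptor), Cd81, Ear2 and Gda, had median ratios of −2.05 to −1.68. Slc27a3 and Dcstamp averaged 18.4 and 16.1 CPM in gated cells and passed the level of 20 CPM only through the cells under the threshold.

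Functional lists are given as counts beside all genes, whose median ratio was −0.05 with 2349 of 5470 genes positive. Of all these genes, 4.17% were lower and 2.71% higher in all 10 animals. Among 12 measured chemokines, 0 had a positive median ratio (list median −0.66); Ccl17, a CCR4 ligand of dendritic cells, averaged 269 ± 228 CPM in gated cells and 749 ± 350 CPM under the threshold and was lower in 9 of 10 animals, while Ccl9 was lower in all 10. Of 24 transcription factors, 9 had a positive ratio (list median −0.12), a share near that of all genes. Id2, Rbpj, Klf4 and Zeb2, which act in the development of dendritic cells, were lower in all 10 animals, with Id2 at 64.4 ± 43.8 against 168 ± 38.3 CPM. Bcl11a and Tcf4, known for plasmacytoid and progenitor stages, were each higher in 9 of 10, with median ratios of 0.77 and 0.80. Irf4, a cDC2 factor, was lower in 7 of 10 with a ratio of −0.62.

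Surface receptors differed in both directions. Mgl2 (CD301b), used to mark the cDC2 that support type 2 responses in skin, averaged 777 ± 180 CPM in gated cells and 1425 ± 122 CPM under the threshold, and Il1rl1, the receptor for IL-33, averaged 48.0 ± 40.7 against 136 ± 39.6 CPM. Both were lower in all 10 animals, as were Ccr2, Cd24a, Mrc1, Adgre1, Csf2ra and Clec4b1, which come from several lists. Of all 5470 measured genes, 228 (4.17%) were lower and 148 (2.71%) higher in all 10. Among 12 measured type 2 cytokine and alarmin receptors, 3 were lower and 1 higher in all 10. Among 5 measured chemokine receptors, 1 was lower and 0 were higher in all 10. The same counts held for 5 measured growth factor receptors of myeloid cells. Flt3, the growth factor receptor of dendritic cells, was higher in 9 of 10 at 72.3 ± 38.2 against 41.2 ± 15.3 CPM, and Klrk1 in 9 of 10 at 93.2 ± 37.0 against 34.9 ± 19.0 CPM. Of 7 measured NK receptor family genes outside the rule, 5 had a positive median ratio (list median 0.26) and 0 were higher in all 10. Klrb1b, another NK receptor gene, averaged 81.2 ± 18.3 CPM in gated cells against 152 ± 46.1 CPM under the threshold in knock-out animals. In wild-type animals it averaged 134 ± 74.2 against 128 ± 67.9 CPM. Il2rg, the shared cytokine receptor chain, was higher in all 10. MHC class II and its loading genes showed no common direction, with 6 of 12 positive and a list median of −0.02; H2-Ab1 averaged 7365 ± 1178 against 8112 ± 543 CPM.

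Animals differed widely in Ly6a and Isg15, which the rule did not use, and in Ifitm1, which it did. The levels of Klrd1, Ifitm1 and Cd7 are shaped by the threshold and are given as a description. Klrd1 in gated cells had 706, 1138, 559, 1116 and 879 CPM in KO1 to KO5, and 1003, 883, 799, 877 and 932 CPM in WT1 to WT5. Ifitm1 had 1076, 103, 15.98, 88.6 and 1707 CPM in KO1 to KO5, and 1265, 721, 108, 348 and 95.1 CPM in WT1 to WT5. Klrd1 lay between 559 and 1138 CPM in every animal, and Ifitm1 was highest in KO1, KO5 and WT1 and lowest in KO3. Ly6a had 1042, 123, 39.9, 177 and 1690 CPM in KO1 to KO5, and 740, 49.7, 0, 176 and 19.0 CPM in WT1 to WT5. Isg15 had 1358, 91.2, 184, 266 and 2408 CPM in KO1 to KO5, and 1438, 118, 48.0, 302.5 and 114 CPM in WT1 to WT5. KO1, KO5 and WT1 were again the highest for both genes, and the genotypes overlapped. Cd7 had 185, 186, 24.0, 124 and 133 CPM in KO1 to KO5, and 284, 87.1, 44.0, 90.8 and 76.1 CPM in WT1 to WT5, with WT1 highest and KO3 lowest.

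The same animals stood out in their other cells. The 19 interferon list genes in the table summed to 3978, 408, 719, 1045 and 6578 CPM in gated cells of KO1 to KO5, and to 3838, 323, 340, 902 and 599 CPM in WT1 to WT5. In all cells outside the Cd209a cells they summed to 8175, 695, 310, 4081 and 10282 CPM in KO1 to KO5, and to 8440, 2285, 513, 1284 and 1404 CPM in WT1 to WT5. KO1, KO5 and WT1 were the 3 highest in both. Under the threshold the list summed to 1768 CPM in KO1, 2187 CPM in KO5 and 2954 CPM in WT1, and to between 196 and 935 CPM in the other 7 animals. Ly6a under the threshold reached 347 CPM in KO5 and 511 CPM in WT1 but 28.6 CPM in KO1. A hashtag marks the animal and its tube at once, so an animal's state and its handling cannot be told apart. How cells were assigned to hashtags is not stated, and cells assigned to a wrong animal were not looked for.

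**Figure D2:**
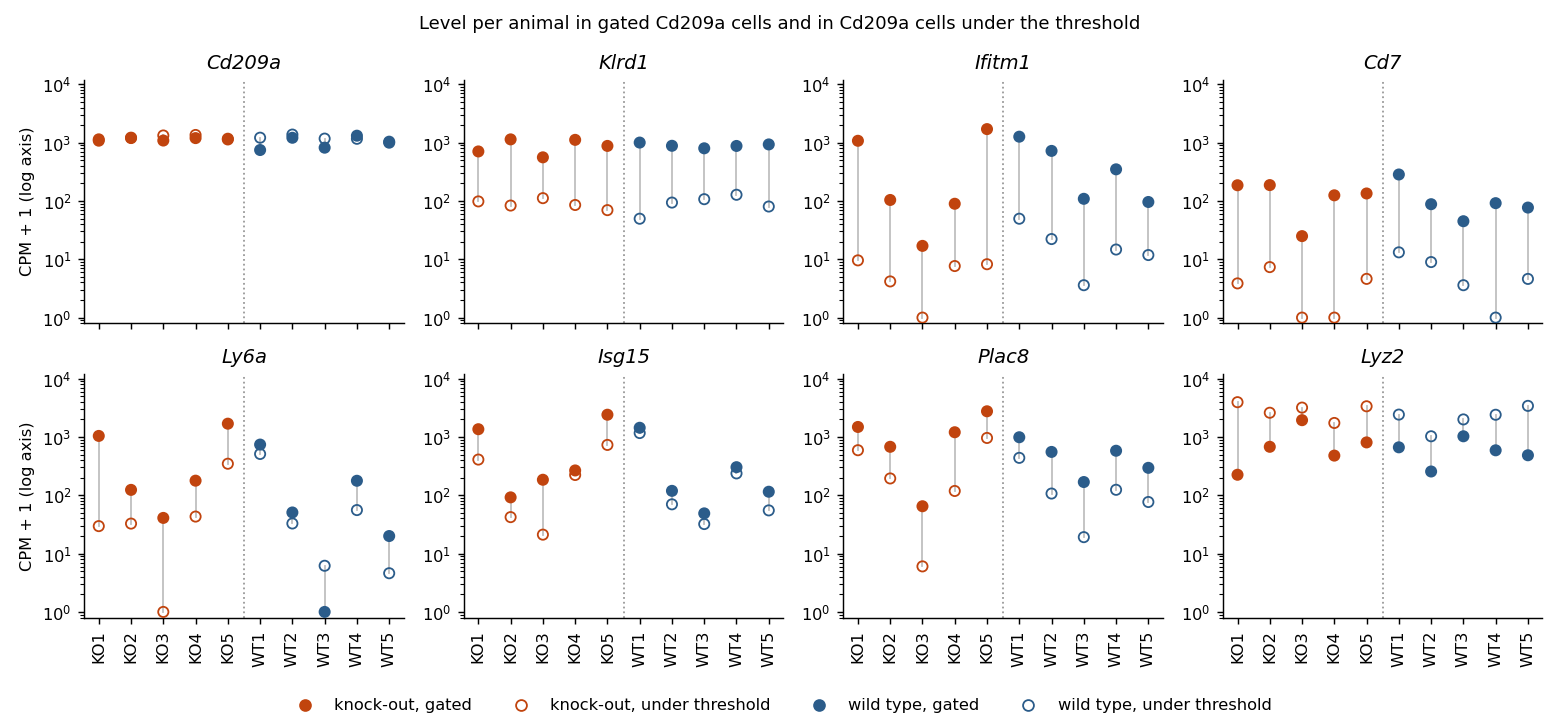
Each panel gives a gene's level per animal (CPM + 1, log axis) in gated Cd209a cells (filled) and in Cd209a cells under the threshold (open), knock-out animals left of wild-type ones. Klrd1 stays between 559 and 1138 CPM in gated cells of every animal, while Ifitm1, Ly6a and Isg15 are highest in KO1, KO5 and WT1.

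The mix of cells inside the gate differed between animals accordingly. Gated cells with Klrd1 but neither Ifitm1 nor Cd7 made up 4.35%, 55.6%, 69.2%, 50.0% and 17.4% of the gate in KO1 to KO5, and 16.7%, 36.8%, 56.0%, 61.5% and 57.1% in WT1 to WT5. The low animals were KO1, KO5 and WT1. The means were 39.3 ± 27.3% in knock-out and 45.6 ± 18.8% in wild-type animals (SD, n = 5 each). This measure was chosen after its values were seen and is given without a test. The difference of −6.33 points was smaller than either SD and became 2.41 points without KO1.

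Within the gate, pooled over animals, cells in which all 3 genes were detected differed from cells with Klrd1 alone in genes outside the rule. The 35 cells with all 3, pooled, had 866 Ly6a, 1855 Plac8 and 1116 Isg15 CPM. The 84 cells with Klrd1 alone had 93.7 Ly6a, 173 Plac8 and 145 Isg15 CPM. Median depths were 7761 and 7756 UMIs, and these cells were not thinned. Ccl17 and Mt1 ran the other way, at 99.2 and 448 CPM in the cells with all 3 genes and 415 and 1341 CPM in cells with Klrd1 alone. The 35 cells came from 9 animals, 10 of them from KO1, and 6 each from KO5 and WT1. Of the 84 cells with Klrd1 alone, KO1, KO5 and WT1 gave 1, 4 and 3. This contrast thus shares its animals with the one above, and differences between cells and between animals were not separated in it.

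Levels of several genes differed along the sum, not all of them on both sides of the threshold. Ly6a had 64.7, 65.2, 173, 389 and 770 CPM in Cd209a cells with a sum of 0, 1 to 3, 4 to 7, 8 to 15 and 16 or more. Lyz2 had 3313, 1733, 878, 651 and 545 CPM in the same bins, and Ecm1 had 426, 207, 42.6, 18.1 and 62.8 CPM. Plac8 had 267, 185, 506, 726 and 1569 CPM in these bins. Lyz2 was lower in each bin than in the one before, whereas Ly6a was level below the threshold, and Plac8 and Ecm1 each had 1 step against their general direction. Median depth also differed, from 6079 UMIs at a sum of 0 up to 8725 UMIs at 16 or more. The bins pool the animals, and in the gate Ifitm1, which enters the sum, and Ly6a were both highest in KO1, KO5 and WT1. The part of depth and of the mix of animals in these values was not tested.

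**Figure D3:**
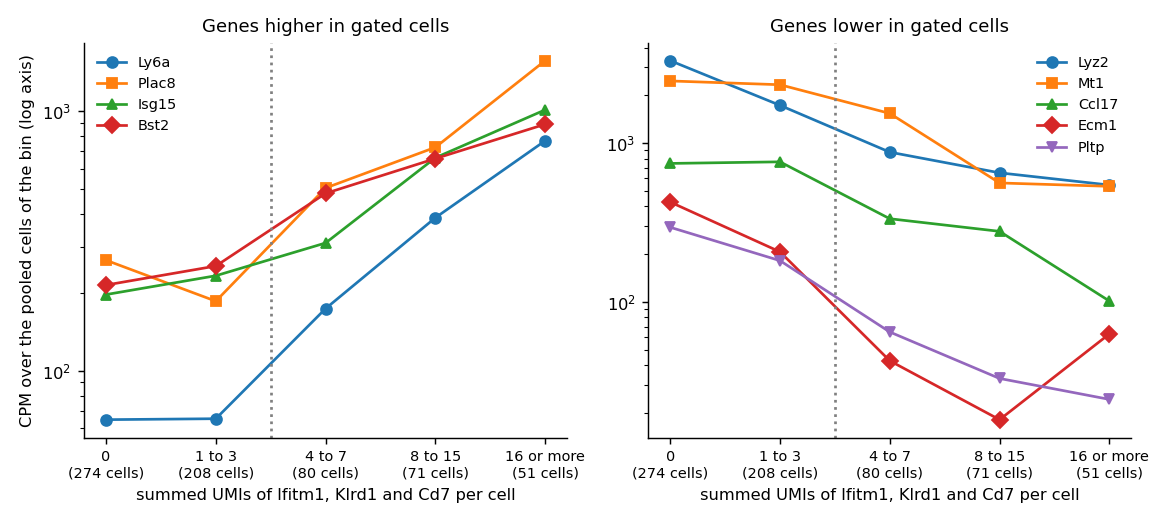
Pooled level of 9 genes (CPM, log axis) in Cd209a cells binned by their summed UMIs of Ifitm1, Klrd1 and Cd7; the dotted line is the gate's threshold of 4. Ly6a, Plac8, Isg15 and Bst2 are highest at 16 or more, where Ly6a has 770 CPM, while Lyz2, Mt1, Ccl17 and Pltp are lowest there and Ecm1 is lowest at 8 to 15.

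The frequency of gated cells did not pass a test by genotype. They made up 2.62%, 6.92%, 4.80%, 3.37% and 3.39% of all cells in KO1 to KO5, and 2.01%, 2.98%, 3.09%, 5.20% and 2.42% in WT1 to WT5. The ranges overlapped, with means of 4.22 ± 1.70% in knock-out and 3.14 ± 1.23% in wild-type animals (SD, n = 5 each; two-sided exact permutation p = 0.278, smallest possible 0.00794). Of all Cd209a cells, they made up 29.5%, 34.6%, 17.3%, 18.2% and 36.5% in KO1 to KO5, and 62.1%, 25.3%, 31.6%, 38.2% and 22.6% in WT1 to WT5. The means were 27.2 ± 9.02% and 36.0 ± 15.8%, and the exact permutation p was 0.349. WT1, with 29 Cd209a cells against 62 to 79 in the other animals, carried most of this difference of −8.75 points, which was −2.22 points without it. Depth differed between genotypes, with animal medians averaging 5733 UMIs per cell in knock-out and 4776 in wild-type animals. Thinning to 3000 UMIs left out the cells with fewer, 537 of 2633 in knock-out and 1082 of 3421 in wild-type animals. Of the remaining cells, gated cells made up 1.80% in knock-out and 1.56% in wild-type animals after thinning (p = 0.675 by exact permutation). The unequal loss of cells limits this comparison.

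**Figure D4:**
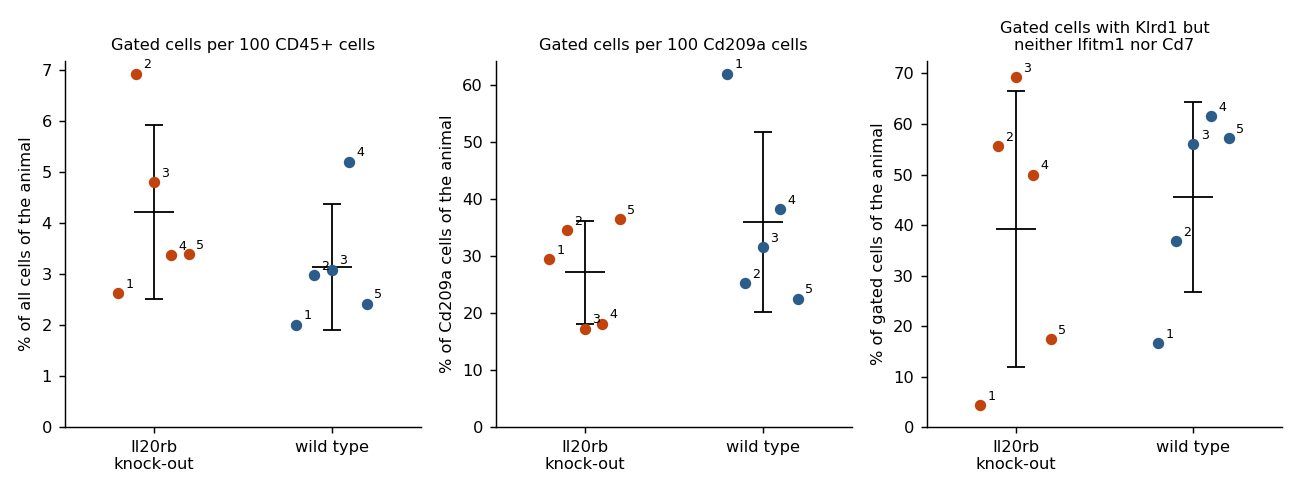
Share of gated cells among all CD45+ cells (left) and among Cd209a cells (middle), and share of gated cells with Klrd1 only (right), in percent per animal; numbers name the animal, and bars are mean and SD of 5 animals. Knock-out and wild-type animals overlap in all 3 panels, and WT1 is highest among Cd209a cells at 62.1%.

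Between genotypes, gated cells differed in 1 of the 2117 genes tested (0.0472%) by edgeR's quasi-likelihood test with Benjamini-Hochberg adjusted p under 0.05; 106 genes had an unadjusted p under 0.05. The gene was Rpl29, which encodes a ribosomal protein. It had 915, 886, 642, 723 and 899 CPM (after TMM scaling) in KO1 to KO5, and 1355, 1728, 1450, 1400 and 1145 CPM in WT1 to WT5. Every knock-out animal lay below every wild-type animal, with a log2 fold change of −0.80 ± 0.13 (SE) and an adjusted p of 0.0194 by edgeR. By edgeR the adjusted p was 0.0526 without KO2, 0.158 without KO4, 0.115 without WT2, 0.0717 without WT3 and 0.0730 without WT4, and it was 0.0817 with all animals but without robust estimation. Rpl29 at chr9:106428889-106431568 lies on the same chromosome as Il20rb at chr9:100457719-100486473. It was known from earlier results of these data to be lower in knock-out cells as a whole, so it is not independent evidence about the gated cells, and processed copies of ribosomal protein genes can share reads.

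No other gene passed, and those with the lowest p in each direction are given as values. Bcl2l11 (BIM, a pro-apoptotic protein) had 33.5, 37.1, 28.8, 19.8 and 62.7 CPM in KO1 to KO5, and 99.2, 108, 82.4, 139 and 88.9 CPM in WT1 to WT5. These did not overlap, but the edgeR adjusted p was 0.214. Ppp2r5a, Nfe2l2 (NRF2, a factor of the oxidative stress response) and Selenop also did not overlap, with log2 differences of −0.97, −0.85 and −0.93, and 2410006H16Rik had −0.77. In the other direction were Naa20, Ndufc1, Ppia, Raly, Manf and Irf9 (the DNA-binding part of the interferon factor ISGF3), with log2 differences of 0.26 to 1.25; their adjusted p by edgeR was 0.748 to 0.895.

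Lists gave the following counts in gated cells, beside a median log2 difference of 0.00 over all genes and 1058 of 2113 genes positive. All 4 tested interferon list genes were positive (median 1.01) and 0 passed the test; Isg15 averaged 1040 ± 1250 CPM in knock-out and 478 ± 702 CPM in wild-type animals. Ly6a averaged 741 ± 899 against 233 ± 372 CPM, a log2 difference of 1.72 ± 1.32 (SE) with an adjusted p of 0.94 by edgeR. These differences lay within the spread between animals already described. All 10 MHC class I genes tested were positive (median 0.40) and 0 passed. Of 5 glucocorticoid-responsive genes, 5 were negative (median −0.77) and 0 passed; Tsc22d3 (GILZ) averaged 156 ± 65.2 against 348 ± 162 CPM and Cxcr4 40.6 ± 24.2 against 85.1 ± 36.0 CPM.

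In all 684 Cd209a cells, gated or not, 4 of 5290 genes passed (0.0756%), all 4 lower in knock-out animals, and 247 had an unadjusted p under 0.05. Rpl29 averaged 641 ± 61.1 CPM in knock-out and 1144 ± 115 CPM in wild-type animals (log2 −0.84 ± 0.10, edgeR adjusted p = 7.19e-05). Fkbp5, a glucocorticoid-induced partner of the glucocorticoid receptor, averaged 16.5 ± 4.96 against 63.9 ± 23.2 CPM (log2 −1.93 ± 0.28, edgeR adjusted p = 0.00188). Ddit4 (REDD1), an inhibitor of mTORC1 signalling that glucocorticoids also induce, averaged 13.3 ± 5.51 against 39.8 ± 6.55 CPM (edgeR adjusted p = 0.0239). The fourth was Gm42031, a predicted transcript, at 14.3 ± 4.77 against 106 ± 63.7 CPM (edgeR adjusted p = 0.0138). Like Rpl29, Gm42031 was listed beforehand as marking the knock-out in all cells of these data, so it is not independent evidence about Cd209a cells. In each of the 4 genes, every knock-out animal lay below every wild-type animal. Ddit4 lost its call without any 1 of 7 animals and Gm42031 without any 1 of 7, with adjusted p up to 0.153 and 0.134 by edgeR. Rpl29 and Fkbp5 kept theirs without any 1 animal.

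The genes of the gate itself could be tested across all Cd209a cells, since the whole set was not chosen on them. Klrd1 averaged 374 ± 141 CPM in knock-out and 443 ± 158 CPM in wild-type animals (log2 −0.22 ± 0.31 SE, edgeR). Ifitm1 averaged 247 ± 324 against 274 ± 357 CPM (log2 −0.03 ± 1.29). Their adjusted p was 1.00 by edgeR, and Cd7, with a log2 difference of 0.02 ± 0.80, also did not pass. The standard errors of Ifitm1 and Cd7 leave room for differences of 2-fold or more in either direction. Of 11 glucocorticoid-responsive genes tested, 9 were negative (median −0.58, against 2673 of 5288 genes negative overall), with Fkbp5 and Ddit4 passing.

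**Figure D5:**
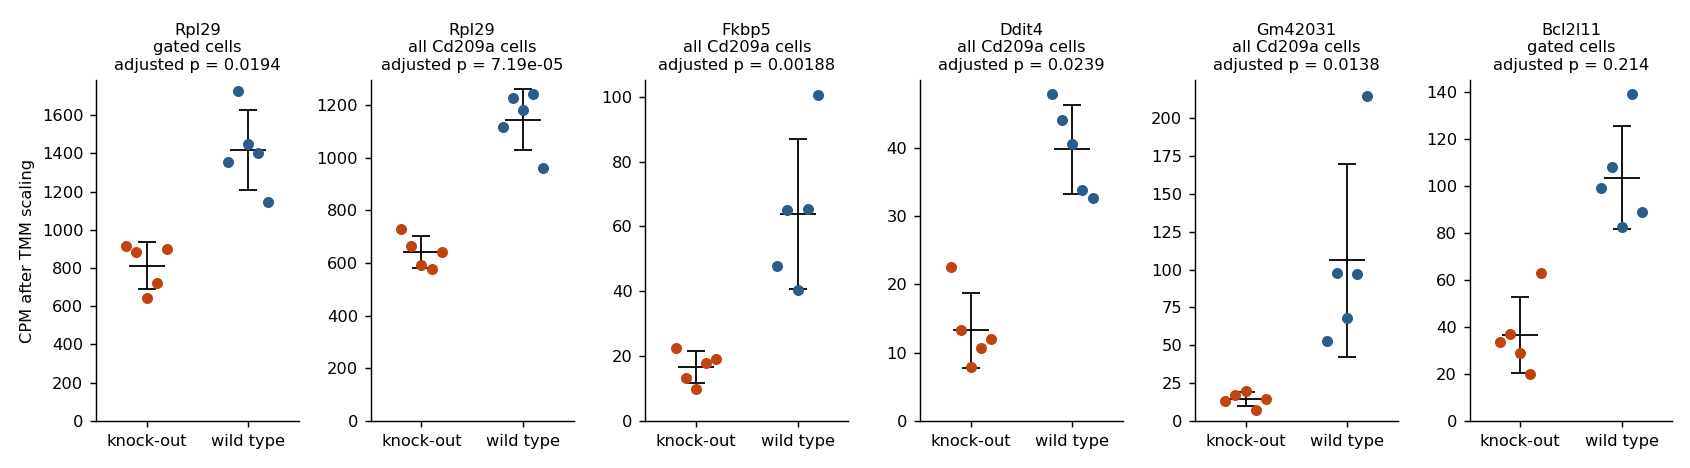
Level per animal (CPM after TMM scaling) of Rpl29 in gated and in all Cd209a cells, of Fkbp5, Ddit4 and Gm42031 in all Cd209a cells and of Bcl2l11 in gated cells; bars are mean and SD of 5 animals. Knock-out animals lie below wild-type animals in each panel, and Bcl2l11 did not pass the test over all genes (adjusted p = 0.214).

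Whether the genotype difference itself differed between gated cells and cells under the threshold was tested by edgeR with the animal as a term: 0 of 4715 genes passed (0.0%), 279 had an unadjusted p under 0.05, and DESeq2 also called 0. The lowest p were those of Il4i1, Tppp3, Timp1 and Ly6e. Il4i1, an amino acid oxidase, averaged 48.2 ± 45.0 CPM in knock-out and 39.2 ± 63.9 CPM in wild-type animals in the gate, and 2.94 ± 1.84 against 54.5 ± 99.5 CPM under the threshold (interaction log2 4.03 ± 0.86, edgeR adjusted p = 0.110). Tppp3 had an interaction log2 of −0.91 ± 0.20, with 776 ± 142 CPM in knock-out and 508 ± 194 CPM in wild-type animals under the threshold. Ly6e, a Ly6 family gene induced by interferon, averaged 556 ± 238 against 387 ± 175 CPM in the gate, and 267 ± 127 against 308.2 ± 104 CPM under the threshold (edgeR adjusted p = 0.164). Timp1, an inhibitor of matrix proteases, had an interaction log2 of 1.81 ± 0.42. In simulated counts of this comparison (4434 genes), the test recovered 23% of the 2-fold changes and 87% of the 4-fold ones, so smaller interactions would often have been missed. With other gates, 5 genes passed at a sum of 3 or more and 10 at a sum of 6 or more, and 9 passed without KO3.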

How the data were processed

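The authors deposited 1 table of raw UMI counts per gene and cell (32285 genes, 6054 cells) in which, per the file headers, each cell name carries its well, genotype and hashtag. The submitters' processing notes list Cell Ranger 6.0.1, R 4.0.5 and mm10; how hashtags were called, and whether strand entered the counting, is not stated there. Every cell held at least 1000 UMIs. Gene identifiers were matched to symbols of GRCm38.p6, the patch release of mm10 (32158 of 32285).

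The animal was the replicate, and p-values measure the spread between 5 animals per genotype. The gate, the gene lists and the comparisons were chosen with earlier results of these data known. No doublet caller was run; leaving out the 5% of cells with most UMIs per well was an alternative, and 16 gated cells were among them. Shares were compared by two-sided exact permutation over 252 splits. Counts were summed per animal (10 cells or more) and tested by the robust quasi-likelihood test of edgeR 4.0.16 (R 4.3.3), after filterByExpr and TMM scaling; summed UMIs per animal in the gate ranged from 105159 to 252307. DESeq2 1.42.0 was an alternative. Ratios of gated cells over cells under the threshold had 20 CPM added and used untested CPM of summed counts. Genes were named as follows: for genotype, all that passed and otherwise the 6 lowest p in each direction; for the interaction, otherwise the 4 lowest p; for the gate, the 20 highest and 12 lowest median ratios among genes with the same sign in all 10 animals; and members of the lists. 1 gene of the 20 is not reported here. Intervals and limits cover counting error only. On simulated counts, edgeR recovered 82.0% of 2-fold and 100% of 4-fold changed genes in the gate, over 1979 genes. The simulation gave every gene the same dispersion and every animal the same mean profile, and the changed genes lay at or above the median level. Recovery of low genes, or of genes that vary between animals as Isg15 and Ly6a do, was not simulated.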

Additional observations from a re-analysis of the deposited data

Results flagged for a closer look

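In all, 8 values stood apart from the other 4 animals of their genotype, by the gap to the nearest animal divided by the range of the 5 (above 0.71), among 50 groups of 5 examined; chance alone gives about 1 in 20. In wild-type gated cells, the highest animal was WT1 for Cd7 (284 CPM against 90.8 in the next, ratio 0.805), Ly6a (740 against 176 CPM, ratio 0.762), Ms4a4c (1431 against 484 CPM, ratio 0.777), Isg15 (1438 against 302.5 CPM, ratio 0.817), Ifitm3 (5650 against 2818 CPM, ratio 0.825) and the summed interferon list (3838 against 902 CPM, ratio 0.835). These genes were high together in that animal, so they are not separate observations. WT1 was also highest for Naa20 (74.4 against 33.3 CPM, ratio 0.778), and WT4 for Selenop (116 against 93.6 CPM, ratio 0.769). No group of knock-out animals was past the value, where KO1 and KO5 were both high.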

How the results depend on the processing

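No paired analysis was possible because the replicate numbers in the labels mark the 2 wells of RNA and hashtag libraries, and the animals of the 2 genotypes share none. This concerns the genotypes: gated and other Cd209a cells were compared within each animal. Neither gate share passed 0.05 under any alternative run. The share of all cells turned to −4.48 points when taken among gated dendritic cells; without 1 animal it was 0.403 to 1.59 points, and the share of Cd209a cells −12.1 to −2.22 points. The share of gated cells with Klrd1 only, added after seeing the data, ranged from −13.8 to 2.41 points without 1 animal. In the gate, the number of genes that passed was 2 with Cd209a of 1 or more UMIs, 4 without the expression filter, 0 without robust estimation and 0 to 3 without 1 animal. In all Cd209a cells it was 1 in well 1 alone, 2 in well 2 alone, 1 with 10 counts required in every animal, 19 without the filter and 2 to 6 without 1 animal. For the interaction it was 5 with a sum of 3 or more, 10 with 6 or more, 1 with Cd209a of 1 or more UMIs, 17 without the filter and 0 to 9 without 1 animal. The cause of these moves was not tested. Without cells holding Cd3e the gate again gave 1 gene and all Cd209a cells 4, as added alternatives. Of 495 alternative values of the gated-over-under ratios, 492 moved by less than 1 SD and none turned sign. All of these genes except Ly6a were chosen for having the same sign in all 10 animals. Leaving out 1 animal, or adding fewer CPM, could therefore not turn their sign. Only the alternatives with other gates could have done so. Fits of the gate in 1 well alone, and with 20 cells per animal, were not run because too few animals had enough cells. With 13 to 27 gated cells per animal, low-level genes could not be compared.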

Other observations

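Relatives of Cd209a were also measured. Cd209d, a neighbouring lectin gene, averaged 375 CPM in gated cells and 209 CPM under the threshold and was higher in 5 of 10 animals, Cd209e averaged 53.5 against 25.5 CPM and was higher in 6, and Cd209c averaged 29.7 against 55.7 CPM and was higher in 1. They are paralogs of Cd209a, and how reads matching several of them were counted is not stated. Genes of the immediate early and dissociation response were mostly lower in gated cells, with 2 of 16 positive and a median log2 ratio of −0.50; Egr1 averaged 173 ± 90.6 CPM against 332 ± 124 CPM and Jund 729 ± 161 CPM against 1173 ± 169 CPM (SD, n = 10 animals), both lower in all 10. Of 9 measured genes on the list of dendritic cell cytokines, 2 had a positive median ratio. Lower in all 10 animals were 3 of them, Tgfb1, Tgfbi and Il1rn, beside 228 of all 5470 measured genes (4.17%). Tgfbi, though on this list, encodes a matrix protein induced by TGF-beta and not a cytokine. Of 11 genes linked to the cDC2A state, 4 were measured (Hes1, Nr4a2, Nr4a3 and Cdh1), 2 of them with a positive median ratio and a list median of −0.01, while Esam, Cd4, Clec4a4 and Dtx1 were at 0 in gated cells. Of 12 genes outside the rule linked to the cDC2B state, 9 were measured, 2 of them with a positive median ratio (list median −0.47). In all 10 animals, 1 of these was higher and 3 were lower, beside 2.71% and 4.17% of all measured genes.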
